A study of Homo sapiens with 8 samples.

Results

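The genes described here are 10 feedback regulators and outputs of the ERK pathway, measured in KCL-22 cells, established from the blast crisis of a chronic myeloid leukemia and dependent on the fusion kinase BCR-ABL. They are the MAP kinase phosphatases DUSP4, DUSP5 and DUSP6, the Sprouty genes SPRY1, SPRY2 and SPRY4, the Spred genes SPRED1 and SPRED2, and the ETS transcription factors ETV4 and ETV5. Each was found by its symbol and occurs once among the 31402 entries of the deposited expression table. DUSP4 had a mean below 1 FPKM (fragments counted relative to transcript length and to all mapped fragments) and was left out of the tests, so 9 of the 10 were tested.

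BCR-ABL signals through the adaptors GRB2 and GAB2 to RAS, which activates the kinases RAF, MEK and ERK in turn. Active ERK raises the transcription of its own brakes: DUSP5 and DUSP6 remove phosphate from ERK, and Sprouty and Spred proteins act further up, at RAS and RAF. ETV4 and ETV5 are transcription factors whose mRNA also follows ERK activity, so this group is widely used as a transcriptional readout of the pathway.

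All 8 libraries came from cells carrying ClonTracer, a library of lentiviral DNA barcodes, and each condition has 1 library. The vehicle population received 0.1% DMSO over 7 days. Imatinib at 2.5 µM and nilotinib at 0.3 µM were each given over 27 days and GNF-2 at 2.5 µM over 21 days to obtain the 3 resistant populations, so time and compound differ together. Imatinib and nilotinib act at the catalytic site of ABL, GNF-2 at an allosteric site. The remaining 4 libraries are sorted single-cell clones, each the descendants of 1 cell. Clones 1, 2 and 4 were isolated from cells resistant to 2.5 µM GNF-2 and were not exposed to catalytic inhibitors, and Clone 3 was isolated from cells resistant to 2.5 µM imatinib and was not exposed to allosteric ones. By the resistance on the labels, the catalytic-resistant group (n = 3) holds the imatinib and nilotinib populations and Clone 3, whereas Clones 1 and 2 form the GNF-2-resistant group (n = 3) with the GNF-2 population. Clone 3 is labelled resistant to both 2.5 µM imatinib and 0.3 µM nilotinib. Clone 4 is resistant to all 3 compounds (n = 1). Nothing in the labels ties the libraries of a group to separate cultures, so p-values measure the spread between these libraries only.

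Depth was estimated from the lowest values above 0 among 583 intronless genes, taken to stand for single fragments. It was lowest for the GNF-2 population (near 19200000 fragments) and highest for Clone 1 (near 40000000). Both fusion partners were abundant everywhere, ABL1 at 65.3 to 110 FPKM and BCR at 58.8 to 106. Of 7 myeloid progenitor markers, 5 had a mean of at least 1 FPKM, among them the aminopeptidase ANPEP (CD13) at 14.6 to 78.3. KIT was at or near 0 in every library, and the myeloid factor SPI1 was listed at 0 in Clones 3 and 4. Of the lymphoid markers, CD79A was present throughout (17.4 to 98.9 FPKM) and MS4A1 was 0 in all 8. CD3D ran from 0 in Clone 2 to 32 in vehicle.

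The 10 genes fell into variable and steady ones. DUSP6 and SPRY4 spread widest, and Clone 2 held the low end of both. SPRY1, ETV4, ETV5 and DUSP5 varied less, while SPRY2, SPRED1 and SPRED2 stayed within a narrow band. No member passed the limma test in any of the 4 group comparisons.

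**Figure D1:**
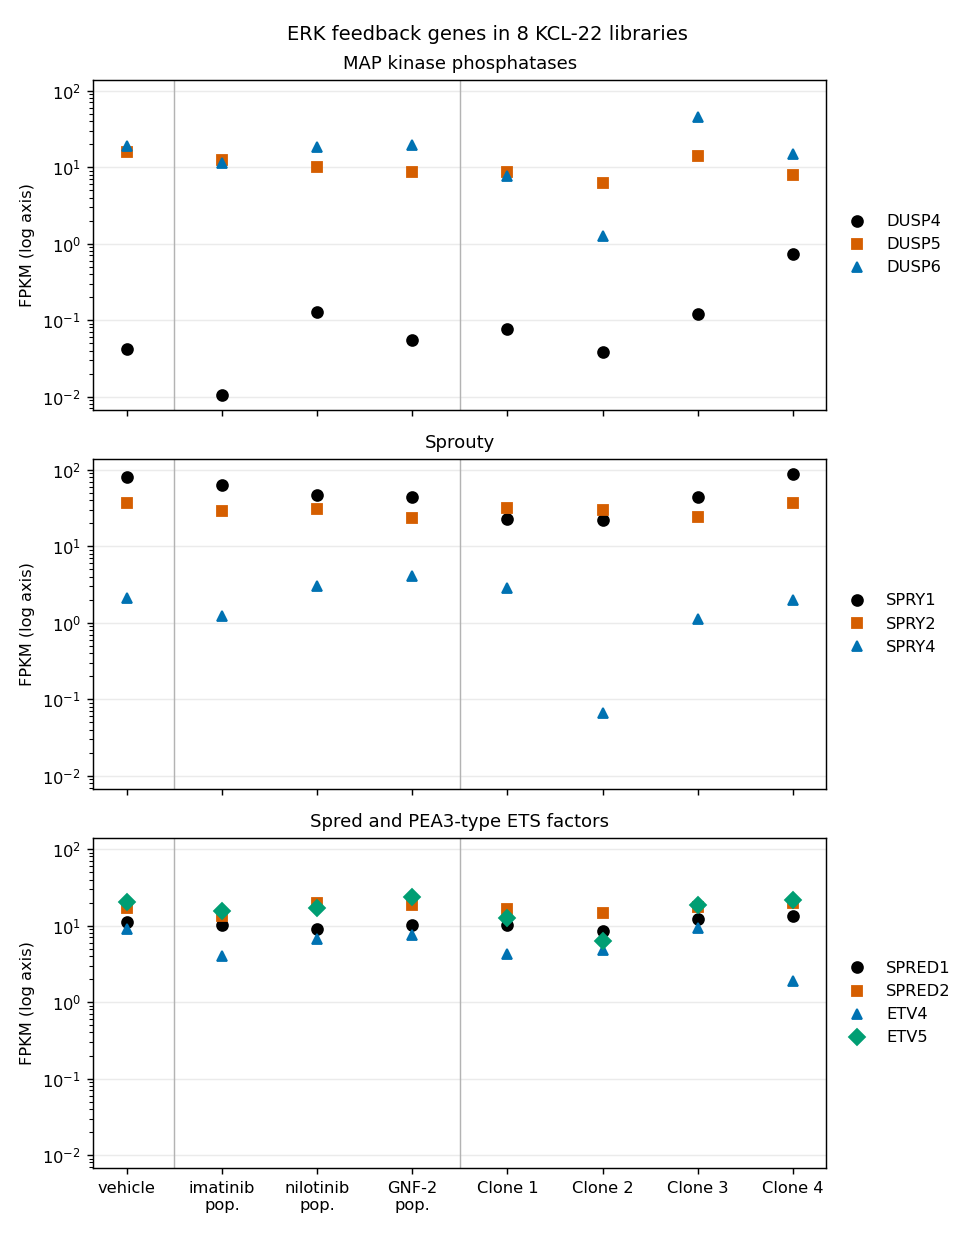
FPKM (log axis) of the 10 genes in each of the 8 libraries, 1 point per gene and library, with vertical lines between vehicle, the resistant populations and the clones. DUSP6 runs from 1.26 in Clone 2 to 44.7 in Clone 3 and SPRY4 reaches 0.0661 in Clone 2, while SPRED1 and SPRED2 stay between 8.45 and 19.9.

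Among the phosphatases, DUSP6, the cytoplasmic phosphatase specific for ERK (chromosome 12, 89741836 to 89746296, GRCh37), had the widest range of the tested members on the log2(FPKM + 1) scale. It stood at 19.1 FPKM in vehicle, and the imatinib, nilotinib and GNF-2 populations had 11.3, 18.2 and 19.7. The clones had 7.58 (Clone 1), 1.26 (Clone 2), 44.7 (Clone 3) and 14.9 (Clone 4). The populations thus lay close together and the clones far apart, with the highest and the lowest of the 8 values both in clones. On the log2(FPKM + 1) scale the range was 4.34, and 1.45% of the 11843 tested genes had a range as large. In bulk RNA, fewer cells with a transcript and less of it per cell cannot be told apart. The annotated antisense gene AC024909.2 overlaps the start of DUSP6, and no source used here says whether strand was used in counting, so reads of that partner may be included.

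DUSP5, the nuclear phosphatase for ERK (chromosome 10, 112257624 to 112271302), was highest in vehicle at 15.9 FPKM. The imatinib, nilotinib and GNF-2 populations had 12.2, 9.89 and 8.55, and Clones 1 to 4 had 8.73, 6.14, 13.9 and 7.82. All 7 resistant libraries lay below vehicle, Clone 3 the nearest to it. The catalytic-resistant libraries (12 ± 2.01 FPKM, SD, n = 3) lay above the GNF-2-resistant ones (7.81 ± 1.45, SD, n = 3) without overlap.

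DUSP4, a nuclear phosphatase that acts on ERK and other MAP kinases, was close to absent. It had between 0.0105 FPKM (imatinib population) and 0.127 (nilotinib population) in 7 libraries, which at the estimated depth is roughly 2 to 22 fragments. Clone 4 had 0.738, roughly 85 fragments, and stood above the rest. At such counts no fold between the other libraries is given.

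Sprouty proteins are inhibitors of signaling from receptor tyrosine kinases to RAS. SPRY1 (chromosome 4, 124317955 to 124324909) was the most abundant member, with a mean of 51.5 FPKM, and SPRY2 (chromosome 13, 80910111 to 80915086) the next, with 30.3. These related genes differed in how steady they were. The stretches before their start sites are shown because neither overlaps an annotated exon or gene in GENCODE release 29. Whether sequence and steadiness are related was not tested. Both are the 250 bases before the RefSeq start on GRCh38.p14, read 5′ to 3′ on the gene's strand. They lie at chr4:123396545-123396794 (plus strand) for SPRY1 and chr13:80341127-80341376 (minus strand) for SPRY2. Capitals mark CCGGAA, a strict form of the ETS site, and shorter or other forms were not searched.
SPRY1: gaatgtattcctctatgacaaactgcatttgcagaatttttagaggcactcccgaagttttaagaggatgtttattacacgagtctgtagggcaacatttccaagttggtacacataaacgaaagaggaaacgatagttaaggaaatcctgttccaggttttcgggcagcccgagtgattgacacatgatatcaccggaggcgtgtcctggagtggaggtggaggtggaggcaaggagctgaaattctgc
SPRY2: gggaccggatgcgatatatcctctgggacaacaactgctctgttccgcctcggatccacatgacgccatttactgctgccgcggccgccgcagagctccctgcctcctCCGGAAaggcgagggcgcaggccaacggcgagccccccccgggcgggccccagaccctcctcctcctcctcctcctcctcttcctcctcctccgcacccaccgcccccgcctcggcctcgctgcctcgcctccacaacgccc

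The SPRY1 stretch has 45.6% G and C and no CCGGAA on either strand, and the SPRY2 stretch has 70.4% and 1 match, whose first base is at position -142 counted from the start site. The set of RefSeq promoter sequences used here held 6 of the 10 members (DUSP6, SPRY1, SPRY2, SPRY4, SPRED1 and SPRED2). SPRY2 alone of these had CCGGAA in the 250 bases, against 14.5% of the 35116 promoters in the set, cut to the same length. The AP-1 motif TGANTCA (6.57% of promoters) and the CRE motif TGACGTCA (1.65%), searched on both strands, were in 0 of the 6. A match is a matter of letters only and says nothing of binding.

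SPRY1 was at 81.2 FPKM in vehicle, followed by 62.9, 46.7 and 44 in the imatinib, nilotinib and GNF-2 populations. Clones 1 to 4 had 22.8, 21.8, 44.4 and 88.3. Clone 4, resistant to all 3 compounds, was the 1 resistant library above vehicle, and Clones 1 and 2, also of GNF-2 origin, were the lowest. For SPRY2, vehicle stood at 36.7 and the imatinib, nilotinib and GNF-2 populations at 28.9, 31 and 23.2. Its clones had 31.9, 29.8, 24.3 and 36.7 in the order of their numbers, so Clone 4 matched vehicle, and the highest library was 1.58 times the lowest, against 4.05 times for SPRY1.

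SPRY4 (chromosome 5, 141689991 to 141704620) was scarce, with a mean of 2.05 FPKM. Vehicle had 2.08 and the populations 1.22 (imatinib), 3 (nilotinib) and 4.11 (GNF-2). Clone 1 had 2.82, Clone 3 had 1.11 and Clone 4 had 1.99, all within the range of the populations or just below it. Clone 2 stood apart at 0.0661, which at its estimated depth is roughly 8 fragments against 143 or more in each of the other libraries.

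Spred proteins bind neurofibromin, the RAS GTPase-activating protein, and bring it to the membrane. SPRED1 (chromosome 15) ran from 8.45 FPKM in Clone 2 to 13.5 in Clone 4, with vehicle at 11. SPRED2 (chromosome 2) ran from 13.4 in the imatinib population to 19.9 in Clone 4, with vehicle at 16.8. Their ranges of 0.61 and 0.54 on the log2(FPKM + 1) scale lay below the median range of all tested genes, 0.93. SPRY2 was equally narrow at 0.64, so these 3 members varied less over the 8 libraries than most genes did.

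ETV4 and ETV5 belong to the PEA3 group of ETS factors. ETV4 (chromosome 17, 41605210 to 41623762) had 9.05 FPKM in vehicle and 4.05, 6.62 and 7.48 in the imatinib, nilotinib and GNF-2 populations. Clones 1 to 4 had 4.3, 4.86, 9.21 and 1.9. Clone 3 matched vehicle and Clone 4 was the lowest, whereas SPRY1, SPRY2, SPRED1 and SPRED2 were all highest in Clone 4. ETV5 (chromosome 3, 185764105 to 185826901) had 20.1 in vehicle, 15.3, 17.1 and 23.6 in the 3 populations in the same order, and 12.4, 6.29, 18.5 and 21.3 in Clones 1 to 4. Clones 1 and 2 were its lowest libraries, as they were for SPRY1 and DUSP6, and the other 6 libraries lay between 15.3 and 23.6.

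Clone 2 was the lowest of the 8 libraries for 6 of the 9 tested members (DUSP5, DUSP6, SPRY1, SPRY4, SPRED1 and ETV5). Over all tested genes Clone 2 was the lowest for 12.8%. Clone 4 was the highest for 4 of the 9 (SPRY1, SPRY2, SPRED1 and SPRED2), against 18.7% of all tested genes, and its SPRY2 differed from vehicle by less than the rounding of the values. Clone 2 counts were the same after rescaling by median ratios. These counts were chosen after the values were seen and carry no test. Markers of other cell types also moved in this library, and their part in the result was not tested. The summed megakaryocyte markers (2 of 3 with a mean of at least 1) were 124 FPKM in Clone 2 and 20.4 to 63.6 elsewhere, of which the platelet glycoprotein GP9 gave 119, while PF4 was 0. Fibroblast and epithelial markers (1 of 4) summed to 87, against 23.8 to 74.8 elsewhere. The keratin KRT18 gave 81.2 of that sum, and it was also at 74.7 in Clone 1 and 56.5 in Clone 3. Myeloid markers (5 of 7) summed to 51.3, against 65.6 to 97 elsewhere. That low sum rests on ANPEP, which was lowest in Clone 2 at 14.6. CD33 was instead highest there at 3.35, and SPI1 (15.8) and CEBPA (16.6) lay within the range of the other libraries. Erythroid markers (1 of 5) summed to 2.18, against 2.2 to 6.16 elsewhere, with HBG1 at 0 in all 8 libraries. The Clone 2 sum was EPOR alone, which was lowest in Clone 4 at 2.15. Lymphoid markers (2 of 5) summed to 55.2, within the 22.6 to 111 of the others. That sum was CD79A alone, while CD3D was 0 in Clone 2, against 0.41 (Clone 4) to 32 (vehicle) elsewhere.

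**Figure D2:**
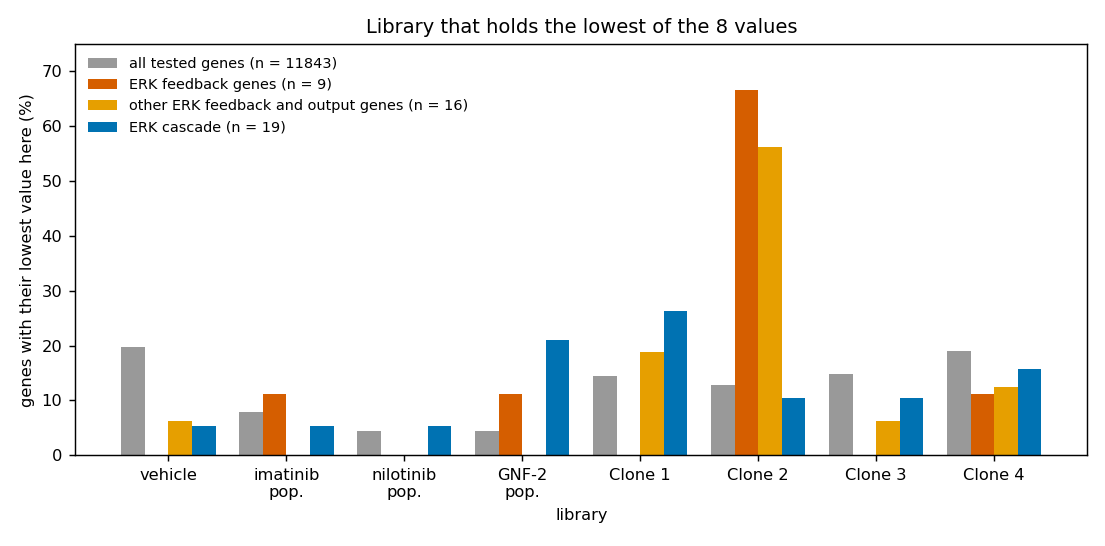
Share of genes (%) whose lowest of 8 values falls in each library, for the 9 tested ERK feedback genes, 16 other ERK feedback and output genes, 19 ERK cascade genes and all 11843 tested genes. In Clone 2 the bars stand for 6 of 9, 9 of 16 and 2 of 19 genes and for 12.8% of all tested genes.

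The populations were compared with vehicle as single libraries, with no test, by calling a gene at least 2-fold apart on the log2(FPKM + 1) scale with 5 FPKM or more in the higher library. No tested member was called in the imatinib population, where 0.726% of all tested genes were called higher and 1.69% lower, nor in the nilotinib population (1.98% and 1.7%), nor in the GNF-2 population (3.09% and 2.7%). In the imatinib population all 9 members were below vehicle, with a median log2 difference of -0.36 against 0.05 over all tested genes. ETV4 came nearest to the limit at -0.99 and passed it with a pseudocount of 0.1 (-1.14) or median-ratio scaling (-1.03), followed by DUSP6 at -0.70. In the nilotinib population 7 of 9 were below vehicle (median -0.24, all genes 0.07), led by SPRY1 at -0.79 and DUSP5 at -0.64. In the GNF-2 population 5 were below and 4 above (median -0.08, all genes 0.12), with SPRY1 at -0.87 and DUSP5 at -0.83 on one side and SPRY4 at 0.73 on the other, and DUSP6 at 0.05 turned to -0.07 with median-ratio scaling. The 3 comparisons share the 1 vehicle library. SPRY1, SPRY2, DUSP5, SPRED1 and ETV4 were below vehicle in each population, by 0.08 to 0.99 on the log2 scale. The share of all tested genes below vehicle in each population was not computed, so this is not shown to be particular to the members.

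Clones were then compared with the population of the compound they were selected in, again with no test, and the labels do not say that the sequenced population was the culture they came from. Against the imatinib population, Clone 3 had 2 members called higher, DUSP6 (44.7 against 11.3 FPKM, log2 difference 1.89) and ETV4 (9.21 against 4.05, 1.01), where 3.12% of all tested genes were called higher and 5.7% lower. Against the GNF-2 population, Clone 1 had DUSP6 called lower (7.58 against 19.7, -1.27), where 6.73% of genes were and 1.65% were higher. Clone 2 had DUSP6 (1.26 against 19.7, -3.20) and ETV5 (6.29 against 23.6, -1.76) called lower, where 6.48% of genes were and 3.27% were higher. Its SPRY4 difference was -2.26 but both libraries were under 5 FPKM. Clone 4 had ETV4 called lower (1.9 against 7.48, -1.55), where 6.46% of genes were and 2.98% were higher, and SPRY1 at 0.99 was just short of the limit. The calls of DUSP6 in Clone 1 (-0.97), ETV4 in Clone 3 (0.65) and ETV4 in Clone 4 (-0.86) were lost with a pseudocount of 5 FPKM. SPRY1 passed the limit in Clone 2 (-0.98) with a pseudocount of 0.1 (-1.01), and in Clone 4 with that pseudocount (1.00) and with median-ratio scaling (1.09).

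**Figure D3:**
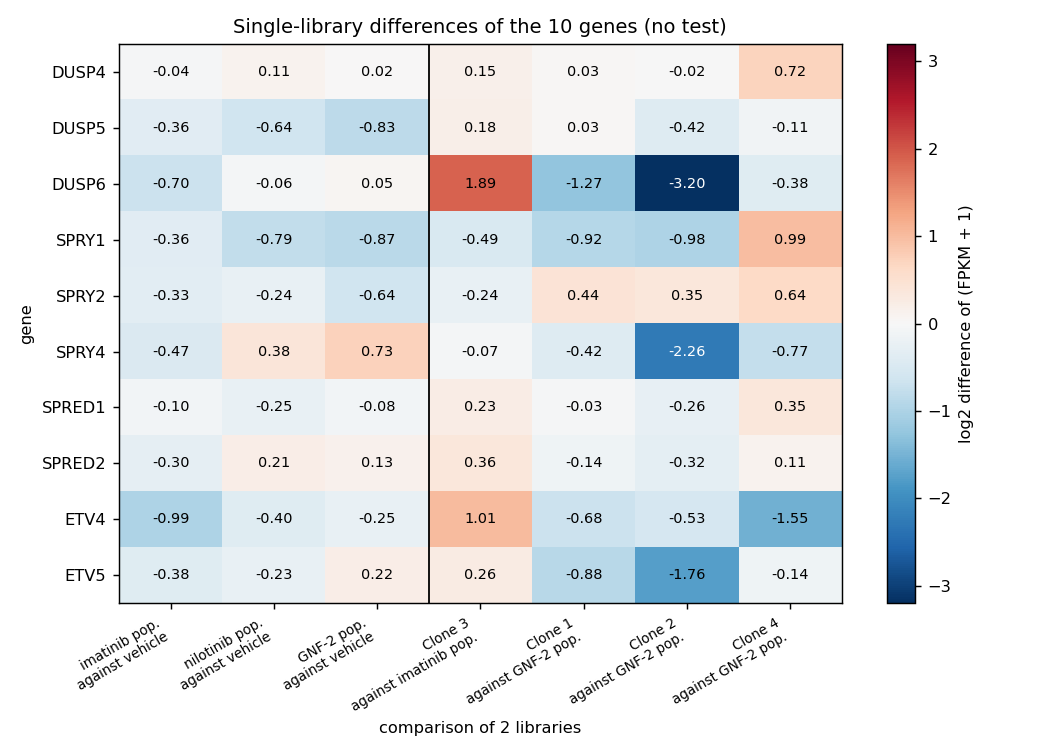
Log2 differences of (FPKM + 1) for the 10 genes (rows) in 7 comparisons of single libraries (columns), blue for lower and red for higher in the first-named library. Differences from vehicle on the left stay within -0.99 and 0.73, while those of clones on the right run from -3.20 to 1.89, both for DUSP6.

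Clones 1, 2 and 4 share their origin, and comparing them with each other, a choice made after their values were seen, showed how far members can differ within it. Between Clone 4 and Clone 2, 3 members were called higher in Clone 4: DUSP6 (log2 difference 2.82), SPRY1 (1.97) and ETV5 (1.61), where 5.19% of tested genes were called higher and 4.39% lower. SPRY4 (1.49) and, in the opposite direction, ETV4 (-1.02, 1.9 against 4.86 FPKM) were not called because both libraries were under 5 FPKM. Between Clone 4 and Clone 1 only SPRY1 was called higher (1.91, where 4.44% of genes were and 2.36% were lower). Between Clone 2 and Clone 1 only DUSP6 was called lower (-1.93, where 2.58% of genes were and 4.02% were higher), and SPRY1 differed by -0.06. SPRY4 was at -1.84 there, with both libraries under 5 FPKM. Clones 1 and 2 therefore shared a low SPRY1 but not the same DUSP6.

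In the replicated comparisons, limma was fitted over all 11843 tested genes with 4 residual degrees of freedom for the resistance groups, and vehicle, with 1 library, was assumed to vary like the rest. The GNF-2-resistant group against vehicle gave 11 calls at a Benjamini-Hochberg adjusted p of 0.05, 0.0929% of genes, and 0 of the 9 members were among them. At an unadjusted p below 0.05 were 2 of the 9 members and 11.1% of all tested genes. SPRY1, one of the 2, had a log2 difference of -1.50 (SE 0.42, 95% interval -2.51 to -0.50, limma adjusted p = 0.426) and DUSP5 of -0.96 (SE 0.29, interval -1.64 to -0.27, adjusted p = 0.426). DUSP6 had a similar size, -1.44, with an SE of 1.21 (adjusted p = 0.636), and without Clone 2 it was -0.59. ETV5 had -0.66 (SE 0.59), and -0.22 without Clone 2. All 9 members were below vehicle (median -0.65, all genes 0.04), and for 5 of them (DUSP5, SPRY1, SPRY2, SPRED1 and ETV4) the 3 libraries did not overlap vehicle, which held for 26.2% of all tested genes in the lower and 33.8% in the higher direction. Without Clone 2, 7 of 9 were below vehicle and the median was -0.42, and with clone against population as a covariate 7 of 9 and -0.41.

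For the catalytic-resistant group against vehicle limma made 4 calls over all genes, 0.0338%, and 0 among the members, with 0 members and 2.69% of all genes at an unadjusted p below 0.05. SPRY1 had a log2 difference of -0.67 (SE 0.42), ETV4 of -0.46 (SE 0.45), DUSP5 of -0.39 (SE 0.29) and SPRY2 of -0.38 (SE 0.25), each with a limma adjusted p of 1. DUSP6 was at 0.14 (SE 1.21), and without Clone 3 at -0.38. Members were below vehicle in 8 of 9 cases (median -0.24, all genes 0.02), and 4 (DUSP5, SPRY1, SPRY2 and ETV5) did not overlap vehicle, against 21.2% of all tested genes in that direction and 28.8% in the other. Both comparisons use the same vehicle library, so they are not independent of each other.

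The GNF-2-resistant group was then set against the catalytic-resistant one. Besides the kind of inhibitor, the groups differ in their mix of clones and populations and in the treatment time of the populations. These cannot be told apart here. Limma made 4 calls over all genes, 0.0338%, and 0 among the members, and 2 of 9 members and 4.87% of all genes were at an unadjusted p below 0.05. SPRY1, one of the 2, was at 29.5 ± 12.6 FPKM (SD, n = 3) in the GNF-2-resistant and 51.3 ± 10.1 (SD, n = 3) in the catalytic-resistant group, a log2 difference of -0.83 (SE 0.30, 95% interval -1.55 to -0.12). DUSP5 differed by -0.56 (SE 0.20, interval -1.05 to -0.08). For both, the groups did not overlap, which held for 4.08% of all tested genes in the lower and 6.82% in the higher direction, and the limma adjusted p was 0.846. SPRY1 in the GNF-2 population (44) and in Clone 3 (44.4) all but touched. DUSP6 differed by -1.59 (SE 0.85, interval -3.63 to 0.46), and by -0.73 without Clone 2 and -1.06 without Clone 3. SPRED1 (interval -0.51 to 0.30), SPRED2 (-0.46 to 0.43) and SPRY2 (-0.41 to 0.43) had the tightest intervals, while SPRY4 (-1.44 to 1.54) left room for differences of more than 2-fold either way.

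For clones against resistant populations (4 against 3 libraries) limma, with 5 residual degrees of freedom, called 883 genes, 7.46%, of which 199 were higher and 684 lower in clones. After quantile normalization the split was 436 higher and 491 lower, and the median over all genes moved from -0.08 to 0.03. None of the 9 members was among the calls, and 0 of 9 were at an unadjusted p below 0.05, where 27.1% of all tested genes were. The smallest limma adjusted p of a member was 0.417, for SPRY4 (log2 difference -0.66, SE 0.48), and without Clone 2 its difference was -0.30. All 9 members overlapped between clones and populations, where 18.1% of tested genes were lower without overlap and 8.17% higher. The SD of DUSP6 over the clones was 19.2 FPKM around a mean of 17.1, against 4.46 around 16.4 in the populations, and that of SPRY1 was 31.1 around 44.3, against 10.2 around 51.2. For SPRY4 (1.18 in clones, 1.46 in populations) and SPRED2 (2.23 and 3.26) the SD was instead smaller in the clones. The share of all tested genes with a larger SD in clones was not computed.

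**Figure D4:**
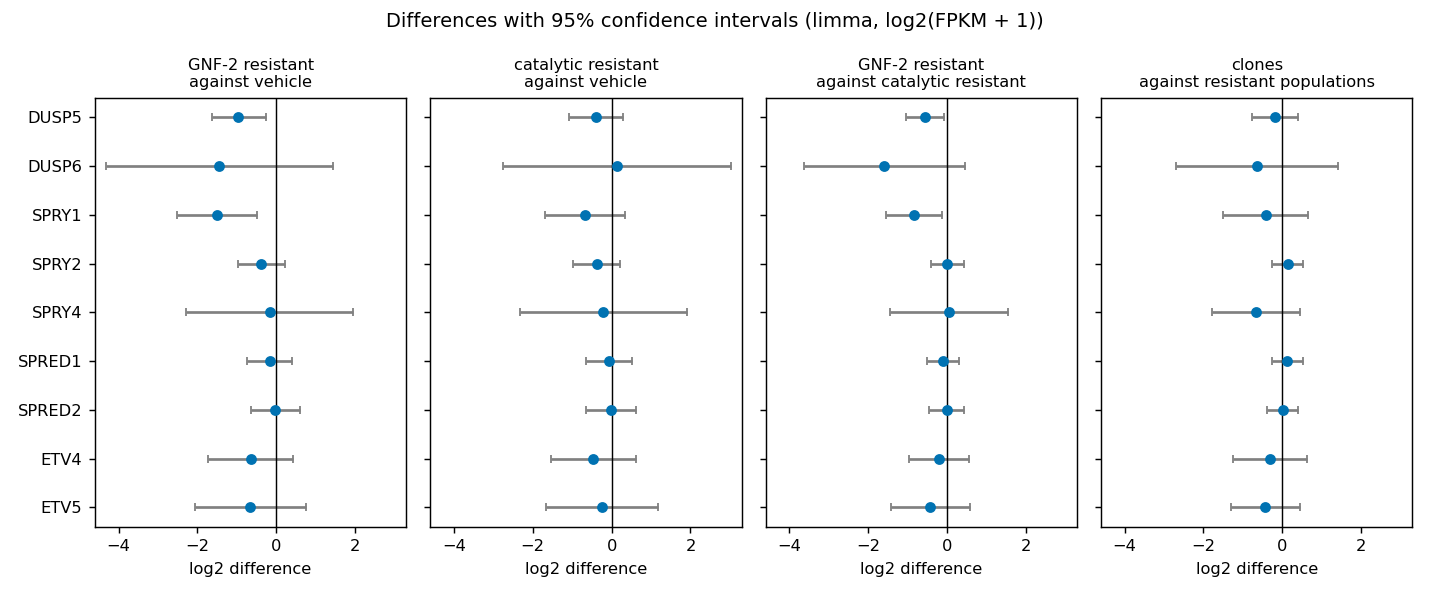
Log2 differences of the 9 tested members (points) with 95% confidence intervals (bars) from limma on log2(FPKM + 1), in 4 group comparisons. The intervals of SPRY1 and DUSP5 lie below 0 in the panels of GNF-2-resistant against vehicle and against catalytic-resistant libraries, before adjustment over all genes, and DUSP6 and SPRY4 have the widest intervals in all 4.

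The rest of the pathway was described from 2 further lists. Of 19 cascade genes, from the adaptors to ERK itself, all were tested and 4 were at least 2-fold apart between their lowest and highest library, as were 44.9% of all tested genes. KSR1, a scaffold that holds RAF, MEK and ERK together, was the 1 of 19 called by limma, lower in clones than in resistant populations (log2 difference -1.02, SE 0.18, adjusted p = 0.0208), a comparison in which 7.46% of all tested genes were called. It had 16, 22.5 and 17.4 FPKM in the imatinib, nilotinib and GNF-2 populations and 8.67, 10.2, 9.24 and 6.59 in Clones 1 to 4, with vehicle at 20.7. In the other 3 comparisons 0 of 19 were called. GAB2, an adaptor of BCR-ABL, was at 49.9 FPKM in vehicle, with the 7 resistant libraries at 21.2 to 37.4 (GNF-2-resistant against vehicle -1.05, SE 0.29, limma adjusted p = 0.426). Clone 2, lowest for 6 members, was lowest for 2 of the 19, GRB2 and MAP2K2. MAP2K2, which encodes MEK2, had 43.9 there and 83.2 to 95.5 elsewhere, whereas MAP2K1, which encodes MEK1, had 78.5 there and 56.3 to 78.7 elsewhere.

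Of 20 other feedback and output genes, 16 were tested, and 15 of the 16 were at least 2-fold apart between lowest and highest library, against 44.9% of all tested genes. Limma called 0 of 16 in each of the 4 comparisons. EGR1, an immediate early transcription factor, came closest, lower in clones than in populations by 1.24 on the log2 scale (SE 0.30, adjusted p = 0.0505). PHLDA1, an ERK-responsive gene, stood at 16.9 FPKM in vehicle and lay between 0.405 (Clone 2) and 10.8 (imatinib population) otherwise (GNF-2-resistant against vehicle -2.92, SE 0.64, limma adjusted p = 0.42). Medians over the 16 were -0.55 (all genes 0.04) in the GNF-2-resistant and -0.12 (all genes 0.02) in the catalytic-resistant group against vehicle.

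Clone 2 was the lowest library for 9 of these 16 genes: DUSP1, DUSP2, DUSP16, SPRED3, ETV1, EGR1, FOS, PHLDA1 and EPHA2, against 12.8% of all tested genes. ETV1, which also belongs to the PEA3 group, had 0.0328 FPKM in Clone 2, 0.71 in Clone 1, 3.73 to 5.98 in the 4 populations, 8.77 in Clone 3 and 18.3 in Clone 4. The ephrin receptor EPHA2 had 0.0825 in Clone 2, 1.08 to 3.11 in Clone 1 and the populations, 8.75 in Clone 3 and 20.8 in Clone 4. DUSP1, a nuclear phosphatase induced by stress and growth factors, had 2.3 in Clone 2, 5.81 to 14.8 in the other resistant libraries and 23.9 in vehicle. Not all phosphatases were low there: DUSP7, a cytoplasmic ERK phosphatase, was highest in Clone 2 at 71.1, against 26.7 to 46.7 elsewhere. DUSP10, which prefers p38 and JNK, had 26.3 in Clone 2 and 26.7 in vehicle, against 4.92 to 20.5 elsewhere.

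The genes with profiles most like those of the members were sought among 10679 protein-coding genes above 0 in all 8 libraries, by the SD over the 8 libraries of the difference between 2 log2(FPKM + 1) profiles, where 0 means parallel profiles. For DUSP6, whose own SD was 1.27, the nearest were the TNF receptor family member TNFRSF8 (0.43), the glutaminyl cyclase QPCT (0.48) and the receptor GPR84 (0.48). TNFRSF8 had 0.0989 FPKM in Clone 2, 30.7 in Clone 3 and 5.42 to 8.25 elsewhere. For SPRY4 they were MAP1B (0.21), ASB2 (0.24) and CCNO (0.26), for ETV5 H6PD (0.18), EMB and LMO4 (0.21 each), and for SPRY1 HSD3B7 (0.23), APOL1 (0.24) and ITPRIP (0.25). For ETV4 the nearest was GPR77 (0.16) and for DUSP5 PTBP3 (0.13). GRB2 was among the 3 nearest to SPRED1 (0.08). Among the members themselves the nearest to DUSP6 was ETV5 (0.81), and ETV5 was also the nearest member to SPRY1 (0.48) and SPRY4 (0.47). With 8 libraries and so many candidates some close profiles arise for any gene, so these are descriptions with no test.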

How the data were processed

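RNA of 8 KCL-22 libraries was measured by sequencing. The authors deposited 1 FPKM value per entry and library. TopHat 1.3, Cufflinks 1.3 and the build GRCh37 are listed in the submitters' processing notes. The table's header does not name the unit, which was taken from the tools and the values (sums of 497775 to 583520 per library). The sources used here do not give strandedness. Of 31402 entries, 70 without a value in some library were left out, and 11843 with a mean of at least 1 FPKM were tested. Members and lists were chosen with earlier results of these data known. Of each list the called genes and up to 4 by size per comparison were to be named, with the 3 nearest profiles per member. Other genes of the lists, and markers, were named after their values were seen.

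On log2(FPKM + 1), limma 3.58.1 (R 4.3.3, trend of variance on mean) fitted 1 mean per resistance group, or per kind of library, over all 8 libraries, two-sided, with Benjamini-Hochberg adjustment over all tested genes. The script was tested on simulated data. Fold changes on this scale understate those of low genes. Depth was estimated from 583 intronless genes of GENCODE release 29 and is rough, and so are the fragments computed from it with the longest coding transcript. Tried instead were a pseudocount of 0.1 or 5, a filter at a mean of 5 FPKM or none, median-ratio and quantile scaling, no variance trend, a covariate and leaving out each library. Added after seeing the data were only genes above 0 in all 8 libraries, comparisons among Clones 1, 2 and 4, and counts of lowest libraries. Tables were made with pandas 2.3.3 and numpy 2.4.6 in Python 3.11.15, and figures with matplotlib 3.10.9.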

Additional observations from a re-analysis of the deposited data

Results flagged for a closer look

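Among the 4 clones, DUSP4 in Clone 4 (0.738 FPKM) stood further from the other 3 (0.0387 to 0.121) than Dixon's 95% limit allows. This was looked for in 10 genes, and chance gives such a sample in about 1 of 20 groups.

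For 4 members Clone 3 differed from the imatinib population in a direction opposite to that of Clones 1, 2 and 4. Those clones all differed from the GNF-2 population in the same direction. The difference between origins was not tested, since 1 clone has imatinib origin. Clones 1, 2 and 4 are compared with the same GNF-2 population library. The share of all tested genes with this pattern was not computed, so the pattern is not shown to be particular to the members. DUSP6 was at 1.89 on the log2 scale in Clone 3 and at -1.27, -3.20 and -0.38 in Clones 1, 2 and 4. ETV4 was at 1.01 in Clone 3 and at -0.68, -0.53 and -1.55. ETV5 was at 0.26 and at -0.88, -1.76 and -0.14. SPRY2 went the other way, at -0.24 in Clone 3 and at 0.44, 0.35 and 0.64 in Clones 1, 2 and 4.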

How the results depend on the processing

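No member passed the threshold under any alternative tried, and the smallest limma adjusted p was 0.141 (SPRY1, GNF-2-resistant against vehicle, without the GNF-2 population). Of 491 alternative values over 36 member results, 457 kept their direction and 34, in 15 results, did not. No paired analysis was possible because the labels give the groups no shared replicate numbers. With 1 library per condition, spread within a condition is unknown, and SPRY4 in Clone 2 and DUSP4 rest on few fragments. Where a cause is not evident from the setting, the cause was not tested.

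Counts of limma calls in GNF-2-resistant against vehicle (11) were 79 with no filter, 7 at a mean of at least 5 FPKM, 0 with only genes above 0 in all 8 libraries (1284 at an unadjusted p below 0.05) and 1 (without Clone 1) to 12 (without the GNF-2 population) leaving out 1 library, with 3 without Clone 2. In catalytic-resistant against vehicle (4) they were 59, 2, 0 (304 unadjusted) and 0 (without the nilotinib population or Clone 3) to 1 (without the imatinib population), and 1 after median-ratio or quantile scaling. In GNF-2-resistant against catalytic-resistant (4) they were 2 at a mean of 5, 0 with only genes above 0 (553 unadjusted) and 1 (without the imatinib population) to 8 (without the GNF-2 population), with 2 without Clone 2. For clones against resistant populations (883) they were 238 with resistance group as a covariate and 125 (without the nilotinib population) to 1100 (without Clone 2). Without the imatinib population, the GNF-2 population, Clone 1 or Clone 4 they were 196, 268, 271 and 562. Median-ratio scaling gave 339 higher and 507 lower.

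The members' median in catalytic-resistant against vehicle (-0.24) was -0.10 with clone against population as a covariate. In GNF-2-resistant against catalytic-resistant (-0.19) it ranged from -0.46 without the imatinib population to -0.04 without Clone 2.

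Directions turned as follows, with ranges from leaving out 1 library. Against vehicle, GNF-2-resistant SPRY4 was 0.01 with a pseudocount of 5 and 0.45 with the covariate (-0.61 to 0.52, the latter without Clone 2), and SPRED2 was 0.02 with the covariate (-0.10 to 0.06). Catalytic-resistant SPRY4 was 0.09 with the covariate, SPRED2 was 0.003 after quantile scaling and 0.01 with the covariate (-0.12 to 0.13), SPRED1 ranged from -0.17 to 0.02 and DUSP6 from -0.38 (without Clone 3) to 0.56. Between the GNF-2- and catalytic-resistant groups SPRY2 was -0.004 after median-ratio scaling and -0.01 with the covariate (-0.09 to 0.14), SPRY4 was -0.43 with a pseudocount of 0.1 (-0.40 to 0.73, the latter without Clone 2) and SPRED2 was 0.01 with the covariate (-0.16 to 0.10). ETV4 ranged from -0.46 to 0.05 there and ETV5 from -0.86 to 0.02. Between clones and populations DUSP5 was 0.06, ETV4 0.06 and SPRED2 -0.07 with resistance group as a covariate, SPRED2 ranged from -0.15 to 0.11 and DUSP6 from -1.33 (without Clone 3) to 0.12 (without Clone 2).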
